A study of Mus musculus with 6 samples.

Results

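Chemokines are small secreted proteins that steer migrating cells. The chemokine genes described here are the 14 of 13405 listed genes whose symbol begins with Ccl, Cxcl or Cx3cl followed by a digit: 6 CXC genes (Cxcl1, Cxcl2, Cxcl3, Cxcl5, Cxcl10 and Cxcl16), the CX3C gene Cx3cl1, and 7 CC genes (Ccl2, Ccl5, Ccl6, Ccl7, Ccl9, Ccl20 and Ccl25). They were measured by RNA sequencing in 6 libraries of 4T1 cells, a transplantable mouse mammary carcinoma line of the Balb/c strain, grown without a host. Cells carrying a vector control gave 3 libraries, and cells in which Atm was knocked out (ATM KO) gave the other 3. Atm encodes a kinase activated by broken DNA. The series title joins ATM inhibition to leakage of mitochondrial DNA and to cGAS-STING, the sensor and adaptor pair for cytosolic DNA, so the comparison asks which chemokine transcripts differed once ATM was lost. No dose, treatment or time is given for either group, and the labels do not say how the knockout was made, whether the cells were 1 clone or a pool, or whether replicate libraries were grown as separate cultures. The p-values therefore reflect only how much these 6 libraries vary, and that variation may be technical.

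CXC and CC chemokines are told apart by the spacing of their first cysteines. Those CXC members that bind CXCR2 (Cxcl1, Cxcl2, Cxcl3 and Cxcl5 in the mouse) draw neutrophils, the CXCR3 ligand Cxcl10 draws activated T cells and NK cells, and CC members draw monocytes, T cells or other leukocytes. Many are induced through NF-kappa-B, and Cxcl10 and Ccl5 also through interferon regulatory factors, which act downstream of STING. Cxcl16 and Cx3cl1 are made as membrane proteins and are released by proteases.

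Between 22494919 and 32341508 reads per library fell on the listed genes, and values are normalized reads, that is, reads divided by 1 factor per library. A gene was tested where its mean over the 6 libraries was at least 10, which held for 12149 genes and for 10 chemokine genes. Vector controls 2 and 3 were nearly alike: the 10 tested chemokine genes differed between them by a median of 0.05 on the log2(value + 1) scale, against 0.58 to 1.77 in the other 14 pairs of libraries. Over all listed genes the mean chi-square per gene was 16.4 for this pair and 77.0 to 368.5 for the others, where counting error alone gives about 1. They were therefore kept as the separate samples the labels name, but the values do not tell separate cultures from repeat libraries of 1 culture. Vector control 1 stood apart from both, and the results that rest on it are given with and without it. The Atm transcript averaged 1703 ± 243 (SD, n = 3) normalized reads in the controls and 1923 ± 316 (SD, n = 3) in the knockouts, and its ranges overlapped (1519 to 1978 and 1591 to 2220). The transcript therefore does not check the labels, since a knockout need not lower the mRNA.

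The libraries carried the epithelial markers of a mammary carcinoma line. All 7 epithelial markers chosen for the check were listed, with Krt18 at 31136 ± 7792 and Cdh1 at 17326 ± 307 in control cells. Of 16 leukocyte markers 5 were listed, with summed values of 949 to 1922 in the controls and 1165 to 2674 in ATM KO cells, nearly all from Cd68, Cd14 and Csf1r. The neutrophil genes S100a8 and S100a9 reached at most 12.7 and 2.57. Of the fibroblast markers 3 of 8 were listed, with summed values of 146 to 547 and 344 to 754, and of the endothelial markers 1 of 7, Cdh5, at 0 to 11.7. Defining markers such as Ptprc, Cd3e, Itgam and Pecam1 were among those not listed, so no value can be given for them. In bulk RNA, fewer cells of a type and less RNA per cell cannot be told apart.

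Per length, 4T1 cells carried 1 chemokine transcript far above the rest. Cxcl5, which draws neutrophils, stood at 28192, 5319 and 5212 normalized reads per kb of exon in vector controls 1 to 3 and at 13739.8, 17753 and 11302 in ATM KO 1 to 3. Its part of the summed per-kb level of the 14 genes was 81.7%, 56.2% and 55.2% across the controls and 71.1%, 69.3% and 62.4% across the knockouts. Its control mean lay at the 99.8th percentile of all tested genes with an annotated length. Next in the control order came Cxcl1 at 2274 ± 1294 per kb, Cxcl16 at 1543 ± 288 and Cx3cl1 at 861 ± 547 (SD, n = 3). The order Cxcl5, Cxcl1, Cxcl16, Cx3cl1 held within each of the 3 controls, but the ranges of Cxcl1 (1525 to 3768) and Cxcl16 (1356 to 1874) overlapped, so those neighbours do not differ beyond their spread, whereas every control value of Cx3cl1 (229.5 to 1199) lay below those of Cxcl16. In ATM KO cells Cxcl5 again led in each library, while the next place was held by Cxcl16 in ATM KO 1 (2628 against 1971 for Cxcl1) and by Cxcl1 in ATM KO 2 and 3 (4147 and 3199.8).

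The other 10 genes were at least 1 order of magnitude lower in control means. Ccl20, which draws CCR6-bearing lymphocytes and dendritic cells, stood at 79.5 ± 38.2 per kb, Cxcl3 at 47.9 ± 71.5, Ccl2 at 44.8 ± 75.3, Ccl5 at 24.1 ± 3.21 and Cxcl10 at 9.85 ± 1.57. The SDs of Cxcl3 and Ccl2 exceeded their means, so neither can be placed against its neighbours, while the ranges of Ccl5 and Cxcl10 did not overlap. Ccl25, Ccl6, Cxcl2, Ccl7 and Ccl9 followed at 6.67 ± 5.22, 5.63 ± 7.34, 4.20 ± 0.904, 2.46 ± 2.08 and 1.84 ± 2.04. These last 5 cannot be ordered beyond their spread.

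**Figure D1:**
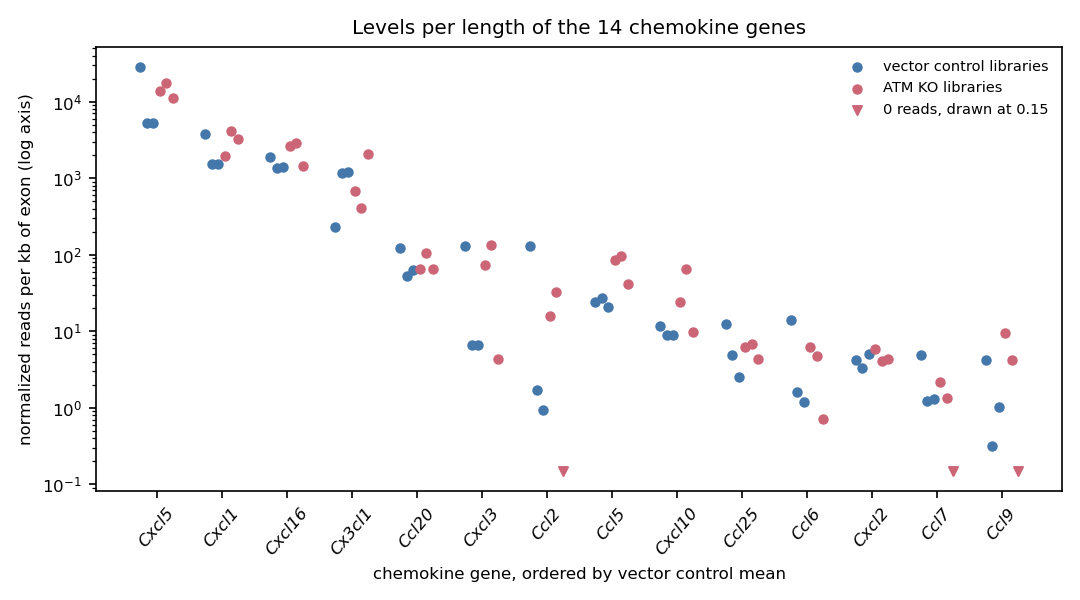
Normalized reads per kb of exon (log axis) for the 14 chemokine genes, ordered by the vector control mean, with 1 point per library (blue, vector control; red, ATM KO; triangles, 0 reads). Cxcl5 lies above the other genes in every library, and Cxcl3 and Ccl2 spread widely within both groups.

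Many of the 14 genes sit side by side. On chromosome 5 (GRCm38), Cxcl5 (90759360 to 90761624), Cxcl3 (90786103 to 90789600), Cxcl1 (90891241 to 90893115) and Cxcl2 (90903871 to 90905938), all on the plus strand, lie within 146579 bases that hold 7 coding genes. Ppbp, the CXCR2 ligand also called Cxcl7, is the other listed gene of this block; its symbol falls outside the rule. Cxcl10 (92346638 to 92348889, minus strand) lies farther along the same chromosome. On chromosome 11, Ccl2 (82035571 to 82037453) and Ccl7 (82045712 to 82047525) form a pair on the plus strand, and Ccl5 (83525778 to 83530518), Ccl9 (83572919 to 83578636) and Ccl6 (83587882 to 83593087) a trio on the minus strand, with Cxcl16 (70453983 to 70459984) apart. Neighbours did not share a level: Cxcl1 and Cxcl2, separated by 10755 bases, stood at 2274 ± 1294 and 4.20 ± 0.904 per kb in the controls.

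The sequence before the start site is shown for 3 CXCR2 ligands of that block, which carry like NF-kappa-B type matches at very different levels, and for Cxcl10, in which the matches of several factor types can be seen. Of the 14 genes 9 have a promoter in the RefSeq table (GRCm38.p6), and the 250 bases before each start were searched on both strands for GGGNNTTNCC (NF-kappa-B type), GAAANNGAAA (interferon-stimulated response element type) and TGANTCA (AP-1 type). Of 32851 promoter windows of this length in the table, 4.11%, 2.98% and 6.75% hold these letters. Capitals mark the matches, which do not overlap each other in these 4 windows. Each line reads 5′ to 3′ on the gene's strand and ends at the base before the start: Cxcl1 is chr5:90890995-90891244 (plus), Cxcl2 chr5:90903649-90903898 (plus), Cxcl3 chr5:90785851-90786100 (plus) and Cxcl10 chr5:92348890-92349139 (minus).
Cxcl1: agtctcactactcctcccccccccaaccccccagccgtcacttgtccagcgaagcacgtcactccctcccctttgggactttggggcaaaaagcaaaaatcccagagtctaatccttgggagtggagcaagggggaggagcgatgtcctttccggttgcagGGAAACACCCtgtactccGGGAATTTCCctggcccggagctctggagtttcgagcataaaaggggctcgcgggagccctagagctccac
Cxcl2: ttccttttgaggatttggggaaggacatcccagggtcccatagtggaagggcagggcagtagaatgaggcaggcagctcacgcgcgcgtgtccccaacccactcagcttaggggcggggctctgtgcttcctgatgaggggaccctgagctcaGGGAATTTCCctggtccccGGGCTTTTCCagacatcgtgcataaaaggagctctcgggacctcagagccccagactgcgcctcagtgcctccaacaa
Cxcl3: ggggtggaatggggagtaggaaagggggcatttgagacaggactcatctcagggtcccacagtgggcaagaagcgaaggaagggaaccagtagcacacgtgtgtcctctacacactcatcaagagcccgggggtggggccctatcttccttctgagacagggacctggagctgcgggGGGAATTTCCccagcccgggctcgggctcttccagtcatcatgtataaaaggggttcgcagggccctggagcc
Cxcl10: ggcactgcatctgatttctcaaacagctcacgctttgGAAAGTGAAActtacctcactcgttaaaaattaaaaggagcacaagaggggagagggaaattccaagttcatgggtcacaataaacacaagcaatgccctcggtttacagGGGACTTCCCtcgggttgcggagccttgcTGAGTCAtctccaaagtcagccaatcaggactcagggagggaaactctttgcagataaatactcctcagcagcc

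Cxcl1, Cxcl2 and Cxcl3 share the run GGGAATTTCC, which begins 71, 97 and 73 bases before their starts, in genes whose control levels were 2274, 4.20 and 47.9 per kb. Cxcl1 holds a further NF-kappa-B type match on the other strand, and Cxcl2 a further one on the same strand. Cxcl10 holds 1 match of each type: GAAAGTGAAA begins 213 bases before the start, GGGACTTCCC 103 and TGAGTCA 74. NF-kappa-B type matches were found in 6 of the 9 genes, Ccl9 and Ccl20 being the others, and the response element type in 1 of 9. A match describes these letters only.

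No chemokine gene passed the test between ATM KO and vector control cells. Limma called 0 of the 10 tested genes and 0% of all 12149 tested genes (smallest adjusted p over all genes 0.799), edgeR called 0 of 10 against 0%, and DESeq2 called 0 of 10 against 0.691%. At an unadjusted p under 0.05 limma had 1 of 10, against 4.16% of all tested genes, edgeR had 2 of 10, against 4.3%, and DESeq2 had 2 of 10, against 5.9%. By limma, the log2 fold changes (ATM KO minus vector control) of 9 genes were positive and that of 1, Ccl2, was negative. Over all tested genes 48.6% were positive. The median of the 10 was 0.53, beside -0.01 over all tested genes. By edgeR and DESeq2 the median was 0.36 and 0.37, and Ccl20 and Ccl25 were negative as well. With single libraries left out, limma gave medians from 0.28 (without vector control 2 or 3) to 1.19 (without vector control 1). In 1 of the 14, Ccl5, the lowest knockout library exceeded the highest control, a pattern found in 5.7% of tested genes; the reverse pattern, found in 5.48%, was met by none of the 14.

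**Figure D2:**
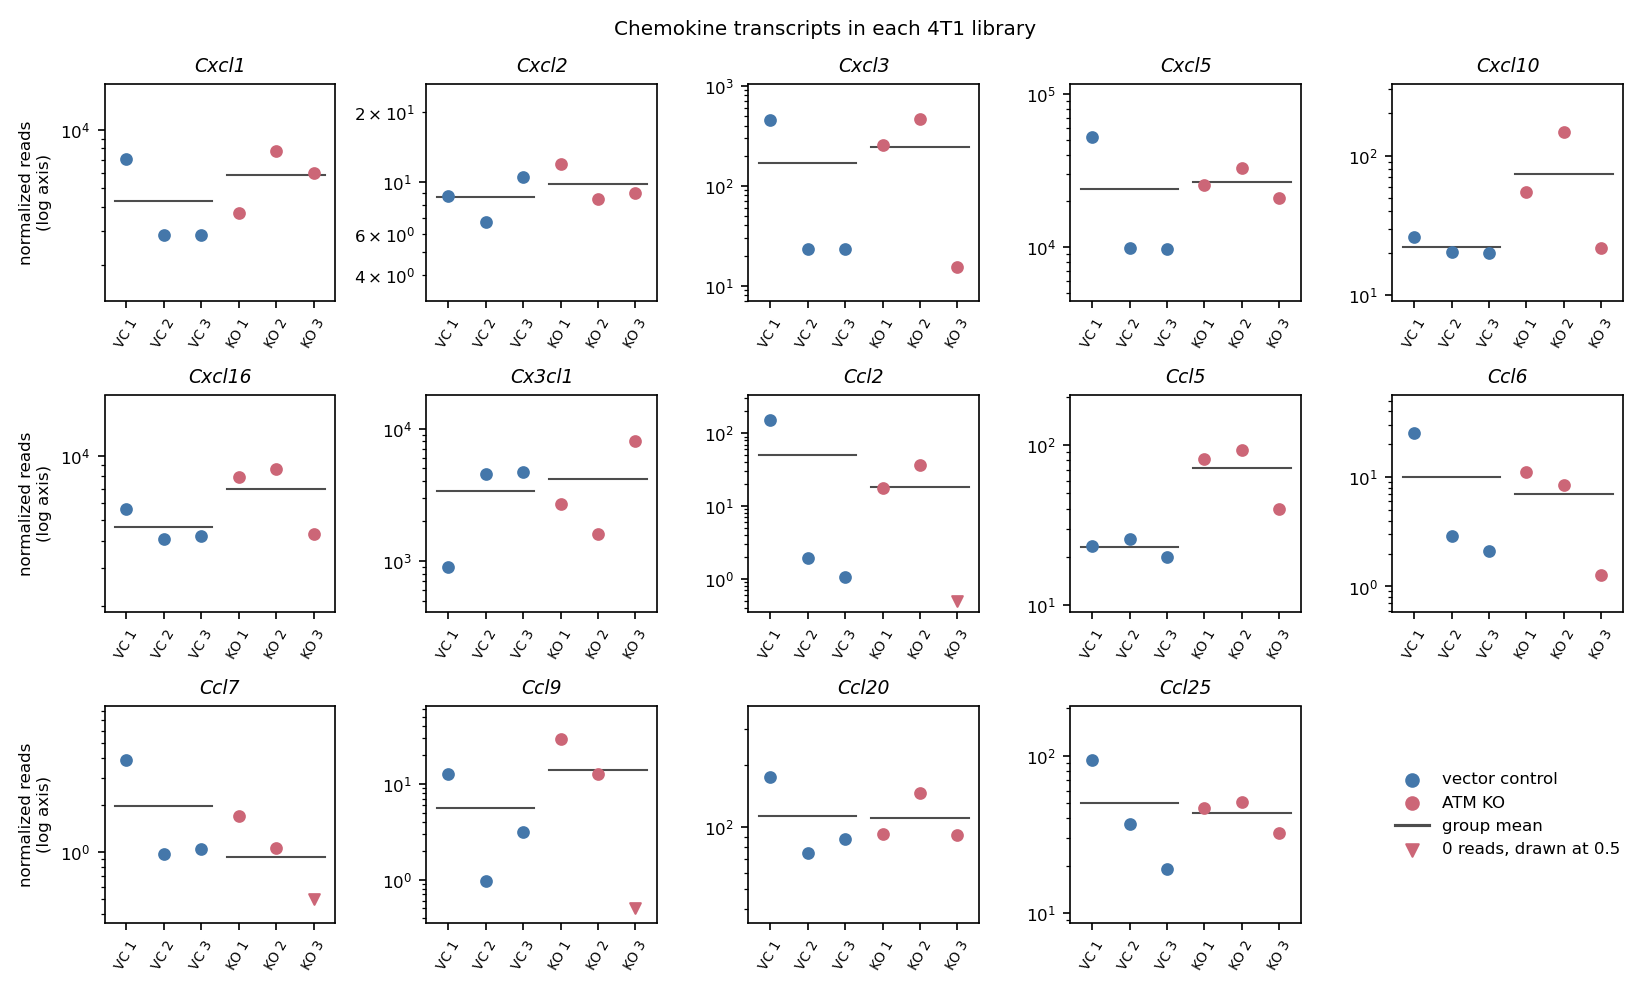
Normalized reads (log axis) of each chemokine gene in vector control (VC, blue) and ATM KO (red) libraries 1 to 3, with the group mean as a line and 0 reads as a triangle. Ccl5 is the gene whose groups do not overlap (19.96 to 26.1 and 39.7 to 92.3), and Cxcl3, Cxcl5, Ccl2 and Ccl6 have vector control 1 far above the other controls.

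Ccl5, also known as RANTES, draws T cells and monocytes. It stood at 23.4, 26.1 and 19.96 normalized reads in vector controls 1 to 3 and at 82.1, 92.3 and 39.7 in ATM KO 1 to 3. The groups did not overlap, the controls lay close together, and ATM KO 3 was the lowest of its group. The means were 23.1 ± 3.08 and 71.4 ± 27.9 (SD, n = 3), a log2 fold change of 1.504 (SE 0.43, 95% interval 0.48 to 2.53). The adjusted p over all genes was 0.999 by limma (unadjusted p = 0.0111) and 0.130 by DESeq2, so the difference did not pass. It rested on 19 to 27 reads in the controls and 31 to 96 in ATM KO cells. Leaving out each library in turn gave log2 fold changes between 1.28 and 1.88, and the value without vector control 1 was 1.51.

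Cxcl10, the interferon-inducible CXCR3 ligand, stood at 26.3, 20.3 and 19.96 in vector controls 1 to 3 and at 54.8, 146 and 21.8 in ATM KO 1 to 3. ATM KO 2 was far above the others, and ATM KO 3 lay within the control range, so the groups overlapped. The means were 22.2 ± 3.55 and 74.3 ± 64.6 (SD, n = 3), a log2 fold change of 1.31 (SE 0.69, 95% interval -0.35 to 2.98). The difference did not pass (adjusted p = 0.999 by limma and 0.592 by DESeq2). It rested on 19 to 27 reads in the controls and 17 to 138 in ATM KO cells. Without ATM KO 2 the log2 fold change was 0.63, and without ATM KO 3 it was 1.98. The ATM KO libraries fell in the same order as for Ccl5, with ATM KO 2 highest and ATM KO 3 lowest, and in both genes vector control 1 lay close to the other controls. The other CXCR3 ligands, Cxcl9 and Cxcl11, were not among the listed genes, so no value can be given for them.

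Cxcl16, a transmembrane chemokine and scavenger receptor whose shed form draws CXCR6-bearing T cells, was among the abundant members. It stood at 5662, 4098 and 4220.5 in vector controls 1 to 3 and at 7939, 8662 and 4328 in ATM KO 1 to 3. ATM KO 1 and 2 lay above every control, but ATM KO 3 lay below vector control 1. The means were 4660.2 ± 870.0 and 6977 ± 2322 (SD, n = 3), with a log2 fold change of 0.53 (SE 0.30, 95% interval -0.18 to 1.25) that did not pass (adjusted p = 0.999 by limma). Without ATM KO 3 it was 0.85 and without ATM KO 2 it was 0.35.

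The other membrane-bound chemokine, Cx3cl1 or fractalkine, which draws CX3CR1-bearing monocytes and NK cells, ran the opposite way across libraries. It stood at 902, 4535 and 4712 in vector controls 1 to 3 and at 2698, 1607 and 8080.5 in ATM KO 1 to 3. Vector control 1 was the lowest and ATM KO 3 the highest of all 6 libraries, and the groups overlapped throughout. The log2 fold change of 0.29 (SE 0.83, 95% interval -1.72 to 2.29) turned to -0.50 without vector control 1 and to -0.36 without ATM KO 3. No direction can be read for this gene.

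Cxcl5, the most abundant member, differed more between controls than between groups. It stood at 52523, 9909.7 and 9710.2 in vector controls 1 to 3 and at 25597, 33074 and 21055 in ATM KO 1 to 3. All ATM KO libraries lay above vector controls 2 and 3 and below vector control 1, which was 5.35 times the mean of the other controls. The log2 fold change was 0.61 (SE 0.66, 95% interval -0.99 to 2.205; adjusted p = 0.999 by limma), and without vector control 1 it was 1.41. Without vector control 2 it was 0.21, and by DESeq2 with all libraries 0.14.

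Cxcl1 and Cxcl3, which act on the same receptor, were also low in vector controls 2 and 3. Cxcl1 stood at 7064, 2859 and 2866 in vector controls 1 to 3 and at 3696, 7776 and 5999.6 in ATM KO 1 to 3. Its log2 fold change was 0.52 (SE 0.44, 95% interval -0.53 to 1.58) and 0.96 without vector control 1. Here ATM KO 1, not ATM KO 3, was the lowest knockout library. Cxcl3 stood at 456, 23.2 and 23.1 in vector controls 1 to 3 and at 255, 468 and 15.4 in ATM KO 1 to 3. Vector control 1, ATM KO 1 and ATM KO 2 formed the high libraries, and ATM KO 3 lay below every control. The log2 fold change of 0.96 (SE 1.64, 95% interval -2.99 to 4.91) became 2.37 without vector control 1, 2.43 without ATM KO 3 and 0.01 without ATM KO 2. Neither gene passed (adjusted p = 0.999 by limma for both).

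Ppbp, their neighbour outside the rule, stood at 139, 37.7 and 37.8 in vector controls 1 to 3 and at 248, 153 and 38.4 in ATM KO 1 to 3. It shared with Cxcl3 the high vector control 1 and the low ATM KO 3, and its log2 fold change of 0.95 (SE 0.83) did not pass. Cxcl2, the remaining CXCR2 ligand listed, had a mean of 9.24 and was not tested; its values of 8.76, 6.77 and 10.5 (vector controls) and 12.0, 8.49 and 8.96 (ATM KO) rest on 7 to 14 reads each. Cxcl2 was the gene of the block with no high library. Because Cxcl1, Cxcl2 and Cxcl3 resemble each other in sequence, reads can be lost or shared between them, and how such reads were handled is not stated in the sources used here.

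Among the CC chemokines, Ccl2, the monocyte attractant MCP-1, spread most. It stood at 149.9, 1.93 and 1.05 in vector controls 1 to 3 and at 17.97, 37.1 and 0 in ATM KO 1 to 3. Vector control 1 held 154 reads, vector controls 2 and 3 held 2 and 1, and ATM KO 3 held 0, which allows up to 3 reads or a value of 3.84 by counting error alone. The log2 fold change was -0.11 (SE 2.06, 95% interval -5.08 to 4.86) and became 1.87 without vector control 1 and 1.47 without ATM KO 3, so no direction can be read. Its neighbour Ccl7, which draws the same cells, was at 3.89 in vector control 1 and at most 1.71 elsewhere, with 0 reads in ATM KO 3, and was not tested.

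Ccl6 and Ccl9, mouse CC chemokines of the CCR1-binding branch that lie beside Ccl5, were also below the mean needed for a test. Ccl6 stood at 25.3, 2.90 and 2.10 in vector controls 1 to 3 and at 11.1, 8.49 and 1.28 in ATM KO 1 to 3. Ccl9 stood at 12.6, 0.967 and 3.15 in vector controls 1 to 3 and at 29.1, 12.7 and 0 in ATM KO 1 to 3. Both were low in vector controls 2 and 3 and in ATM KO 3, a pattern not seen in Ccl5, where all controls were low. The mean of Ccl9, 9.77, lay just under the minimum of 10, and the lowest mean of a tested member was 34.7, that of Ccl2.

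Ccl20 and Ccl25 differed little between the group means. Ccl20 stood at 175, 75.5 and 88.3 in vector controls 1 to 3 and at 93.3, 147 and 92.1 in ATM KO 1 to 3, a log2 fold change of 0.04 (SE 0.41, 95% interval -0.96 to 1.03). Ccl25, which draws CCR9-bearing T cells to thymus and gut, stood at 93.4, 36.8 and 18.9 in vector controls 1 to 3 and at 46.2, 50.9 and 32.0 in ATM KO 1 to 3, a log2 fold change of 0.06 (SE 0.61, 95% interval -1.41 to 1.54). Vector control 1 was the highest library for both. These intervals leave room for differences in either direction.

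**Figure D3:**
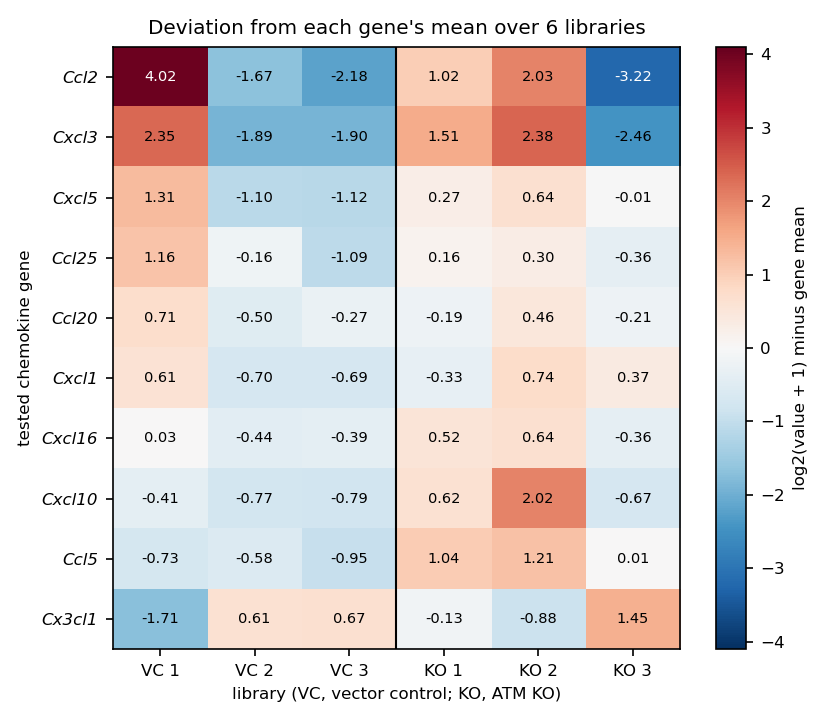
Deviation of log2(value + 1) from each gene's mean over the 6 libraries for the 10 tested chemokine genes, in vector control (VC) and ATM KO (KO) libraries (red, above; blue, below; values printed). Ccl2 and Cxcl3 range from 4.02 to -3.22 and from 2.38 to -2.46, and Cx3cl1 runs opposite to them.

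Across the 10 tested genes the variation between libraries of a group was wide. The median SD of log2 values was 0.94 in the controls and 0.60 in ATM KO cells, against 0.36 and 0.32 over all tested genes. Ccl2 and Cxcl3 were at the 99.9th and 99.1th percentiles of all tested genes for the control SD and at the 99.6th and 99.4th for the ATM KO SD. Ccl5, Cxcl10 and Cxcl16 were at the 27.0th, 30.7th and 37.5th percentiles among the controls but at the 82.4th, 96.6th and 76.0th among ATM KO libraries. In 8 of the 10, vector control 1 lay above both other controls, against 47.1% of tested genes, and in 5 it was more than 2 times either, against 11.8%. ATM KO 2 lay above ATM KO 1 and ATM KO 1 above ATM KO 3 for 8 of the 10, against 29.4% of tested genes. These are counts over the same 6 libraries, in which genes vary together, and they carry no test.

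Without vector control 1, every ATM KO library lay above the remaining controls in 6 of the 14 genes (Ccl5, Ccl20, Cxcl1, Cxcl5, Cxcl10 and Cxcl16), a pattern found in 19.6% of tested genes. In either direction, groups without overlap made up 41.4% of tested genes. The margins of Cxcl10, Ccl20 and Cxcl16 were narrow: ATM KO 3 stood at 21.8, 92.1 and 4328, against 20.3, 88.3 and 4220.5 in the higher remaining control. For Cxcl10 and Ccl20 that knockout library held fewer reads than that control (17 against 21, and 72 against 84). Limma again called 0 of the 10 and 0 genes in all (smallest adjusted p of a chemokine gene 0.192), with 3 of the 10 and 1778 genes in all at an unadjusted p under 0.05. Without ATM KO 3, both remaining knockout libraries lay above every control in 4 of the 14 (Ccl5, Ccl9, Cxcl10 and Cxcl16), against 9.09% of tested genes. Ccl9, which was not itself tested, counts here only by 12.73 in ATM KO 2 (12 reads) against 12.65 in vector control 1 (13 reads). Since vector controls 2 and 3 were nearly alike, comparisons that leave out vector control 1 rest on a control group whose spread may be too small.

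**Figure D4:**
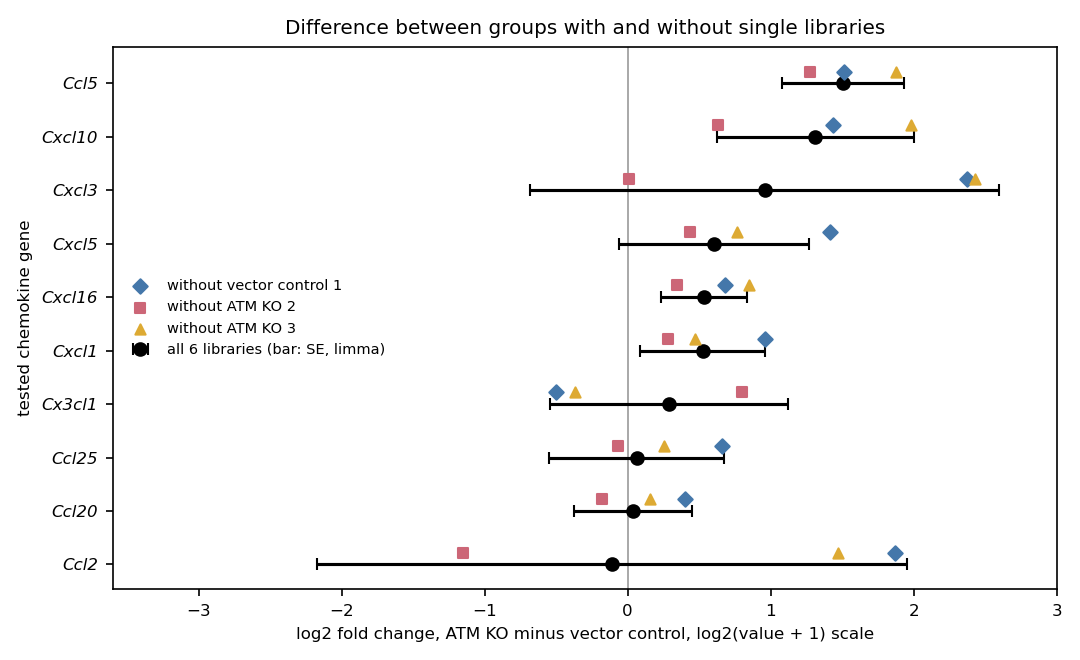
Log2 fold change (ATM KO minus vector control, log2(value + 1) scale) of the 10 tested chemokine genes with all 6 libraries (black, bar = SE) and without vector control 1 (blue), ATM KO 2 (red) or ATM KO 3 (yellow). Ccl5 stays between 1.28 and 1.88, while Ccl2, Cx3cl1, Ccl20 and Ccl25 change sign, the last 2 from values near 0.

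The genes whose values ran closest to those of 4 chemokine genes were sought over the 6 libraries, by the root mean square difference of centred log2 values, among 10834 tested genes. For Cxcl5 these were Mir17hg (0.07), the host transcript of a microRNA cluster, the cyclin gene Ccnj (0.14) and Rpl30 (0.14), a ribosomal protein gene; reads shared with related copies were not examined. Mir17hg stood at 312, 50.3 and 53.6 in vector controls 1 to 3 and at 136, 176 and 110.1 in ATM KO 1 to 3. For Cxcl16 the nearest were Amotl2 (0.09), a regulator of YAP, the keratin gene Krt7 (0.10) and Aunip (0.11).

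For Ccl5 the nearest were Serpinb9 (0.15), an inhibitor of granzyme B, the leukocyte integrin gene Itgb2 (0.20) and the ubiquitin-like interferon effector Isg15 (0.26). Serpinb9 stood at 175, 167 and 130.3 in vector controls 1 to 3 and at 443, 505 and 242 in ATM KO 1 to 3. Itgb2 stood at 323, 262 and 224 in vector controls 1 to 3 and at 1159, 1268 and 459 in ATM KO 1 to 3. Itgb2 is known from leukocytes, and its part in the difference of Ccl5 was not tested. The 5 listed leukocyte markers had summed values of 949, 1832 and 1922 (vector controls) and 2674, 1165 and 1825 (ATM KO). This sum joins genes that moved apart: of 3 tested, 2 stood higher in the knockouts and 1 lower. Csf1r lay higher in every ATM KO library (331 ± 88.9 and 841 ± 357, log2 fold change 1.27), as did 5.7% of tested genes. Cd68 averaged 794 ± 429 and 432 ± 324, with overlap. None of the 3 passed limma or DESeq2. For Cxcl10 the nearest were Pcyox1l (0.31), the metalloproteinase gene Mmp24 (0.37) and again Itgb2 (0.47). With so many candidates over so few libraries close matches are common, and these are descriptions.

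Few chemokine receptors were among the listed genes. Of 19 signalling receptors 1 was listed, Cxcr3, whose control values were 110.0, 229 and 231 and knockout values 241, 77.5 and 636, with overlap (log2 fold change 0.34, SE 0.77). Of 6 atypical receptors, which bind chemokines without the usual signalling, 3 were listed. Ackr3 (listed as Cxcr7), which removes CXCL12, averaged 1259 ± 308 in the controls and 2123 ± 761 in the knockouts (SD, n = 3), a log2 fold change of 0.71 (SE 0.35). Ccrl2 stood at 14.6 in vector control 1 against 252 and 247 in the other controls, and at 241, 94.4 and 235 in ATM KO 1 to 3; without vector control 1 its log2 fold change was -0.51 in place of 0.83. None of these 4 passed limma or DESeq2.

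Among the proteases that release or trim chemokines, 4 of 6 listed genes stood higher in the knockouts (median log2 difference 0.15), and 0 passed limma or DESeq2. By mean value Ctsl and Mmp9 led the list. Mmp9 stood at 1042, 10568 and 10622 in vector controls 1 to 3 and at 19326, 16878 and 27739 in ATM KO 1 to 3 (log2 fold change 2.09, SE 0.90, and 0.98 without vector control 1). It was the 1 protease of 6 with every knockout library above every control, a pattern found in 5.7% of tested genes. Ctsl stood at 35191 ± 8163 and 33832 ± 3801. The sheddases of Cxcl16 and Cx3cl1, Adam10 and Adam17, stood at 6765 ± 794 and 7625 ± 917 and at 4666 ± 339 and 5105 ± 909.7 in control and ATM KO cells. Of 12 genes of syndecans and heparan sulfate synthesis, on whose chains chemokines are held at the cell surface, 8 stood higher and 4 lower in the knockout mean of log2 values (median difference 0.08), and 0 passed. The most abundant were Sdc4 (27434 ± 14616 and 23637 ± 6413) and Sdc1 (7252 ± 970.0 and 12579 ± 3563). Sdc1 lay higher in every ATM KO library, a pattern met by 2 of the 12, against 5.7% of tested genes. The reverse was met by 2 of the 12, against 5.48%.

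Of 15 tested NF-kappa-B genes 1 passed DESeq2, against 0.691% of all tested genes. Nfkbie, which encodes the inhibitor I-kappa-B-epsilon and is itself an NF-kappa-B target, stood at 523, 772 and 843 in vector controls 1 to 3 and at 1296, 1423 and 1478 in ATM KO 1 to 3. The groups did not overlap, and the difference on the log2 scale was 1.00 (SE 0.23; adjusted p = 0.0220 by DESeq2 but 0.999 by limma), and 0.79 without vector control 1. Every knockout library lay above every control in 2 of the 15, against 5.7% of tested genes, and below in 1, against 5.48%. The list as a whole had 10 positive and 5 negative of 15 tested members, with a median of 0.03. The median deviation of its members from their own means was lowest in vector control 1 (-0.31) and highest in ATM KO 3 (0.20). This was not particular to the list: the same held for the proteases (-0.43 and 0.37) and the epithelial markers (-0.60 and 0.44). Its relation to the chemokine values was not tested. Interferon regulatory factors and STATs stood higher for 7 of 9 tested genes and lower for 2; their median was 0.18 and, without vector control 1, -0.04, and 0 passed limma or DESeq2. Stat3 (3715 ± 608 and 3516 ± 124) and Irf1 (1280.2 ± 663 and 2259 ± 535) had the highest means of that list. Irf1 lay higher in every ATM KO library (log2 fold change 0.98, and 0.42 without vector control 1). That pattern was met by 2 of the 9 and by 5.7% of all tested genes.

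Of 9 cytokines known to induce chemokines 3 were listed. Il1a, the alarmin interleukin-1 alpha, stood at 2799, 541 and 556 in vector controls 1 to 3 and at 5912, 3402 and 1396 in ATM KO 1 to 3, a log2 fold change of 1.69 (SE 0.79) that did not pass. As in Cxcl3 and Ppbp, vector control 1 lay above the other controls and ATM KO 3 was the lowest knockout library, though Il1a in ATM KO 3 stayed above vector controls 2 and 3. Lif stood at 3231 ± 1198 and 4036 ± 1232, and neither it nor Il1b passed. Receptors of such cytokines had 9 positive of 12 members, with a median of 0.43 that was 0.10 without vector control 1. The most abundant of them were Il6st (4313 ± 97.4 and 6159 ± 1118), the shared subunit of the interleukin-6 family, and Tnfrsf1b (2954 ± 1434 and 4506 ± 2435). Il6st lay higher in every ATM KO library, a pattern met by 2 of the 12 and by 5.7% of all tested genes. Factors that bind chemokine mRNAs and set their decay had 6 positive of 8 members, a median of 0.17, with Khsrp (14463 ± 1036 and 14132 ± 580.1) and Hnrnpd (10233 ± 3426 and 10416 ± 1122) the most abundant. None of the members of these 3 lists passed limma or DESeq2.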

How the data were processed

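Tools listed in the submitters' processing notes were DESeq2, HTSeq, STAR, SAMtools, cutadapt and Trim Galore, given without versions or roles beside the builds mm9 and GRCm38. Per gene and library, the authors deposited a normalized signal. Each of its values (100%) was a whole multiple of 1 step per library within 0.01 reads, so the reads could be recovered. Whether counting used strand is not stated in the sources used here. Groups were compared in R 4.3.3 by limma 3.58.1 (empirical Bayes with trend, 2-sided, Benjamini-Hochberg over all 12149 tested genes, threshold 0.05) on log2(value + 1), a scale that compresses the changes of low genes. Alternatives on recovered reads were the quasi-likelihood test of edgeR 4.0.16, which called 0 genes, and DESeq2 1.42.0, which called 84; other pseudocounts, filters, scalings, a replicate block and each library left out were also tried. Scripts were tested on simulated data. With 3 against 3 libraries an exact permutation test cannot go below 0.1, so none is given. Members and lists were chosen with earlier results of these data known. All 14 members are named, with the 3 nearest genes of 4 of them, and from each other list the genes that passed limma or DESeq2, or else the 2 with the highest mean. Atm, Ppbp, Adam10, Adam17, Il1b and the cell type markers were named for their role. Coordinates and exon lengths (union of annotated exons) come from GENCODE M21 (GRCm38), which holds 13249 of the gene IDs (98.8%). Promoters are from RefSeq (GRCm38.p6).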

Additional observations from a re-analysis of the deposited data

How the results depend on the processing

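Limma called 0 chemokine genes and 0 genes in all under each alternative that used it, and DESeq2 called 84 genes in all, none of them a chemokine gene. The limma fit with a replicate block called 0 genes (296 at an unadjusted p under 0.05) and 0 chemokine genes. Same-numbered libraries did not deviate together in every pair (correlations of -0.02, -0.58 and 0.53), so the numbers were not taken as pairs. Of all pairs across the groups, vector control 1 and ATM KO 2 deviated most alike (0.61). Of 166 alternative values of single chemokine genes, 149 kept their direction and 17 reversed. With single libraries left out, the log2 fold change ranged from -0.50 to 0.80 for Cx3cl1, -1.23 to 1.87 for Ccl2, -0.47 to 0.66 for Ccl25 and -0.20 to 0.40 for Ccl20. Ccl25 was at -0.21 by edgeR and -0.21 by DESeq2 and Ccl20 at -0.0269 and -0.0241. With vector controls 2 and 3 averaged into 1 sample, chosen after seeing the data, Ccl25 was at -0.27, Ccl20 at -0.15 and the median of the 10 genes 0.28. The cause was not tested, beyond the libraries or scale each alternative changes. The count of genes whose groups do not overlap was 1 of 14 (11.2% of all tested genes) with all libraries and ranged from 1 to 6 with single libraries left out. The 6 came without vector control 1, where 41.4% of all tested genes did not overlap, and without ATM KO 3 it was 4, beside 18.5%. It was 0 at a mean of at least 50, where only 6 members remain. Depth limits Cxcl2, Ccl6, Ccl7 and Ccl9, which have at most 34 reads in a library. It also limits tested members: Ccl5 and Cxcl10 each held 19 to 27 reads in the controls. Cxcl10 held 17 and Cxcl3 12 in ATM KO 3, and Ccl25 held 18 in vector control 3.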
